A study of Mus musculus with 6 samples.

Results

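The genes described here are 54 interferon-stimulated genes and regulators of the interferon response, measured in livers of mice given poloxamer P-407 and compared with livers of mice given saline. P-407 is a surfactant copolymer that raises blood lipids. Members were taken by gene symbol from the annotation of both array types. The rule uses no measured value, but the genes were chosen with earlier results of these data known. Of the 54 members, 50 had a feature on the oligonucleotide array and 32 on the cDNA array. All 50 gave a value in each treated pool on the oligonucleotide array, out of 16871 genes, and 28 did so on the cDNA array, out of 5011 genes. In all, 51 members were measured and 27 of them were measured on both array types. Ifi27, Ifi44 and Gbp6 had no feature with their symbol on either array type.

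The treated group was 12 female C57BL/6 mice, 7 weeks old at the start, that received 0.5 g/kg P-407 into the peritoneal cavity every 3 days until day 96. The reference was 4 mice of the same strain, sex, age and chow (4.4% fat) that received saline on the same schedule. RNA of the treated livers was combined into 3 pools and RNA of the control livers into 1 pool. The labels do not say which mice went into which pool. Each treated pool was labelled with Cy5 and read against the control pool, labelled with Cy3, on 1 array of each type. Labelling was direct from 10 ug of RNA for the cDNA array, and followed linear amplification from 0.5 ug for the oligonucleotide array. Every value below is a log2 ratio of a treated pool over the control pool, and values above 0 stand for more RNA after P-407. A gene was called higher or lower at a limma adjusted p under 0.05. With 1 control pool, variation among the saline mice does not enter the test. No array had its dyes exchanged, so dye bias and P-407 cannot be told apart. The files hold ratios and no intensities, so signal over background and the level of any liver marker are unknown here.

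Interferons are secreted alarm signals against infection. Type I interferons bind the receptor of Ifnar1 and Ifnar2, and a complex that contains STAT2 and IRF9 binds the interferon-stimulated response element (ISRE) in front of antiviral genes. Interferon gamma, made mainly by T cells and NK cells, binds the receptor of Ifngr1 and Ifngr2, and its signal acts through the gamma-activated site (GAS) of genes such as Irf1 and the families of large and immunity-related GTPases. The programmes overlap, because many genes answer to both and IRF1 itself binds elements like the ISRE. In liver, hepatocytes, Kupffer cells and endothelial cells all respond to interferons. The members were divided into 33 type I targets, 9 interferon-gamma targets (the Gbp genes, the Irgm genes, Igtp, Iigp1 and Irf1) and 12 regulators (other transcription factors and the receptors).

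The upstream sequences below show the elements by which the classes are usually told apart. They are the last 160 bases before the start site, 5′ to 3′, from RefSeq on GRCm38.p6, all on the plus strand. Capitals mark matches to the ISRE core (GAAA, any 2 bases, GAAA) or the GAS core TTCNNNGAA on either strand. Ifit1 and Ifit3 stand for the type I targets, Gbp2, Irgm2 and Igtp for the GTPases, and Irf1 for a gene with a GAS core and no ISRE core.
Ifit1, chr19:34640729-34640888: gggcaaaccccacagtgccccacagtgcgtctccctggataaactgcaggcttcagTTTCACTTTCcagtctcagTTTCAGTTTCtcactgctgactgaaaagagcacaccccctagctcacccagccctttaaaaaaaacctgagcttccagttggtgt
Ifit3, chr19:34583369-34583528: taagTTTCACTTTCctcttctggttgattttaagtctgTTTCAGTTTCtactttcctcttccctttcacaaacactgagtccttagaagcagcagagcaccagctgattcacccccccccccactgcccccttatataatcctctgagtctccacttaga
Gbp2, chr3:142620503-142620662: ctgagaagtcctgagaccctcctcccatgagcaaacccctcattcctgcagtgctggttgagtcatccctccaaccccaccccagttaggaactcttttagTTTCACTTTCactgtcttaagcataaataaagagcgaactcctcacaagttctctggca
Irgm2, chr11:58214817-58214976: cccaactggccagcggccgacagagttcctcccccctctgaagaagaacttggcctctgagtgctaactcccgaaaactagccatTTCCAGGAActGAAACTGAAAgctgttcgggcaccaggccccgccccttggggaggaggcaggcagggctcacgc
Igtp, chr11:58199396-58199555: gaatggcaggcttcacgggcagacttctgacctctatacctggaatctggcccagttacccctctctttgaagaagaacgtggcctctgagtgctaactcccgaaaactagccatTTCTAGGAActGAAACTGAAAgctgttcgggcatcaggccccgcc
Irf1, chr11:53769854-53770013: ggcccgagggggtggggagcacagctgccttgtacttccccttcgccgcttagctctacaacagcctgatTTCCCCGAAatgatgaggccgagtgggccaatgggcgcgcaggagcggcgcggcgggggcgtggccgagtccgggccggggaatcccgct

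Promoters of 43 members were in the RefSeq table. In the 250 bases before the start site, 17 of the 43 held the ISRE core, against 3.46% of all 27025 genes in the table, and 13 held the GAS core, against 8.13% of all genes. By class, the ISRE core was found in 9 of 24 type I targets, 6 of 7 interferon-gamma targets and 2 of 12 regulators. The GAS core was found in 6, 4 and 3 of the same genes. Thus the ISRE core did not separate the type I targets from the interferon-gamma targets in this window. Both cores were found in 6 members, and their matches overlapped only in Bst2. Irgm2 and Igtp, which lie near each other on chromosome 11, carry a GAS core and an ISRE core with 2 bases between them. A match describes letters only, and a gene without one can hold a site elsewhere.

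On the oligonucleotide array the interferon genes moved mostly upward and by modest amounts. Limma called 31 of the 50 measured members higher and 0 lower (adjusted p under 0.05), against 22% of all genes called higher and 21.4% called lower. At an unadjusted p under 0.05, 36 members were higher and 2 members, Irf3 and Irf4, were lower, against 26.6% and 26% of all genes. The ratio was above 0 in all 3 pools for 39 members, against 35.1% of all genes. The median over members of the mean ratio was 0.28, against 0.003 over all genes. Called members at 1.5-fold or more numbered 10, against 2.12% of all genes. Without the call, the same number, 10, reached 1.5-fold, against 2.23% of all genes, and 0 of the 50 reached 2-fold, against 0.676%. Without the prior that limma shares between genes, a one-sample test called 0 members at an adjusted p under 0.05 and 29 higher at an unadjusted p under 0.05. In bulk liver RNA, a change in the number of cells of a type and a change in RNA per cell cannot be told apart.

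**Figure D1:**
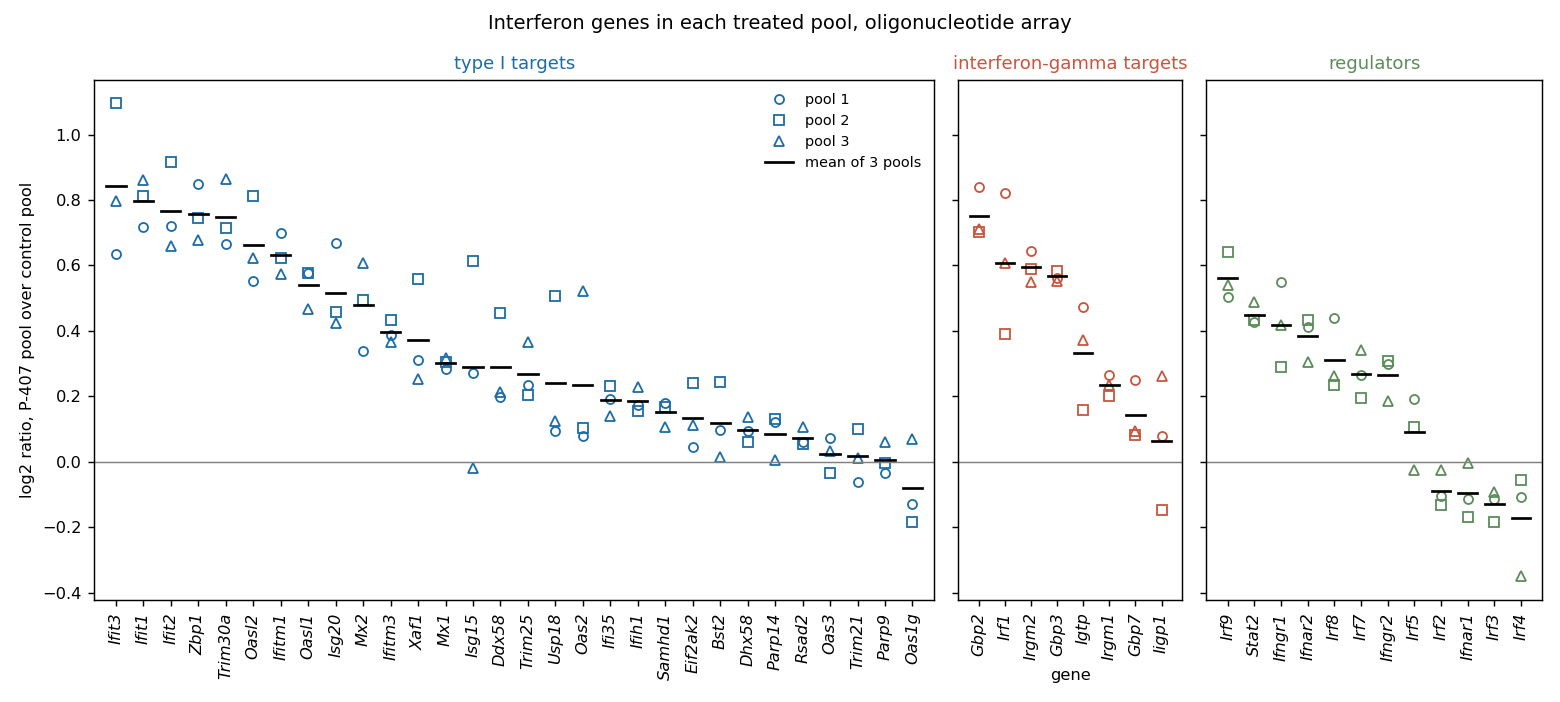
Log2 ratio of each of 3 P-407 pools over the control pool (vertical axis) for the 50 members on the oligonucleotide array (horizontal axis), by class and in order of the mean, with a bar at the mean of 3 pools. The highest mean is 0.84 (Ifit3), 31 members were called higher, and 4 regulators lie below 0 in every pool.

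Markers of other cells were read on the oligonucleotide array, where 22% of all genes were called higher and 21.4% lower. Of 16 measured macrophage markers, 11 were called higher and 4 lower, with medians of 0.98, 0.58 and 0.79 in pools 1, 2 and 3. Of 18 markers of T and NK cells, 8 were higher and 2 lower, with a median of the mean ratio of 0.13. On the cDNA array 9 of the T and NK cell markers had a median of -0.13, with 3 means above 0 and 0 called. Of 7 markers of plasmacytoid dendritic cells, strong producers of type I interferon, 3 were higher and 1 lower. The lower one was Siglech (-0.25 ± 0.14, SD, n = 3 pools), and the higher ones were Spib (0.54 ± 0.12), Ly6d (0.42 ± 0.21) and Tcf4 (0.15 ± 0.05). On the cDNA array Spib lay below 0 in every pool, at -1.97, -1.75 and -0.20 (limma adjusted p = 0.154). Hepatocyte markers held 1 higher and 7 lower of 15, and endothelial markers 0 higher and 4 lower of 12. The hepatocyte genes Alb, Ahsg and Serpina1d, none called, had nearly the same ratios (-0.05, -0.21 and -0.57 in pools 1, 2 and 3). Whether they are separate readings is unknown without intensities. At an unadjusted p under 0.05, 1 endothelial marker was higher and 4 lower, against 26.6% and 26% of all genes. The part of these cells in the interferon genes was not tested. Genes of chemosensory receptors, expressed mainly in sensory epithelia, give a scale for ratios of this array: 95% of 862 such genes had a mean ratio under 0.24, and 29 of the 50 members lay above that value, against 12.8% of all genes. Of the 862 genes 11.0% were called higher, and their highest mean was 2.08, above that of every member.

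The Ifit genes, whose proteins bind foreign RNA and block its translation, had the largest mean ratios of the 30 type I targets on the oligonucleotide array. Ifit3 lay at 0.64, 1.10 and 0.80 in pools 1, 2 and 3. That is 1.79-fold higher in the P-407 livers (mean 0.84 ± 0.23, SD, n = 3 pools, limma adjusted p = 0.00147), with pool 2 highest. Ifit1 lay at 0.72, 0.81 and 0.86, which is 1.74-fold (0.80 ± 0.07, adjusted p = 3.71e-04). Ifit2 lay at 0.72, 0.92 and 0.66, which is 1.70-fold (0.77 ± 0.13, adjusted p = 6.92e-04). All 3 genes were above 0 in every pool, and the spread between pools was smaller than each mean.

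A further 4 type I targets were called at 1.5-fold or more. Zbp1, a sensor of Z-form nucleic acids that triggers cell death, lay at 0.85, 0.75 and 0.68 (1.69-fold, limma adjusted p = 4.69e-04). Trim30a, a ubiquitin ligase that restrains Toll-like receptor signalling in mouse, lay at 0.67, 0.71 and 0.86 (1.68-fold, adjusted p = 5.69e-04). Ifitm1, a membrane protein that blocks virus entry, lay at 0.70, 0.62 and 0.57 (1.55-fold, adjusted p = 5.72e-04). In each of these the pools differed by less than 0.2 between highest and lowest. Oasl2, of the oligoadenylate synthetase family, lay at 0.55, 0.81 and 0.62 (1.58-fold, adjusted p = 0.00101).

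The other antiviral effectors split. Mx1 and Mx2, dynamin-like GTPases that trap viral particles, rose by 0.30 ± 0.02 and 0.48 ± 0.14. Oasl1, an inhibitor of Irf7 translation in mouse, rose by 0.54 ± 0.06, the exonuclease gene Isg20 by 0.52 ± 0.13, the entry inhibitor gene Ifitm3 by 0.40 ± 0.03, and Samhd1, which depletes nucleotides, by 0.15 ± 0.04 (not called without pool 1 or without pool 2). The enzymes that make the RNA-degrading signal oligoadenylate were not called: Oas1g lay at -0.08 ± 0.13, Oas2 at 0.23 ± 0.25 and Oas3 at 0.02 ± 0.05. Rsad2, which encodes viperin, lay at 0.06, 0.05 and 0.11, Eif2ak2, the kinase PKR that halts translation, at 0.05, 0.24 and 0.11, and Bst2, which tethers budding virions, at 0.12 ± 0.12. None of these 6 passed the threshold. Of 15 measured effectors that act on RNA or virus particles, 10 were called higher, against 22% of all genes.

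Among the ISG15 system, ubiquitin ligases and other induced genes, 4 of 9 were called higher, against 22% of all genes. Isg15, the ubiquitin-like modifier, lay at 0.27, 0.61 and -0.02, and its protease Usp18, which also blocks the type I receptor, at 0.09, 0.51 and 0.13. Both were highest in pool 2, and neither was called (limma adjusted p = 0.0842 for Isg15 and 0.0656 for Usp18). Without pool 3, Isg15 was called higher. Xaf1, a promoter of apoptosis, rose by 0.37 ± 0.16 with the same pool highest, Trim25, a ligase that acts with RIG-I, lay at 0.23, 0.20 and 0.37 and rose, and Ifi35 rose by 0.19 ± 0.05 (not called without pool 1 or without pool 2). Trim21, the cytosolic antibody receptor, lay at -0.06, 0.10 and 0.01, and Parp9, an ADP-ribosyltransferase family member, at 0.01 ± 0.05, neither called.

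Parp14, another ADP-ribosyltransferase, had 2 features on the oligonucleotide array that went opposite ways. One lay at 0.45, 0.53 and 0.53 and the other at -0.21, -0.27 and -0.51, each called by limma when features were fitted singly (adjusted p = 9.11e-04 and 0.0112). Their average, 0.12, 0.13 and 0.01, was not called, so the direction of Parp14 is not settled by this array. Of the RIG-I-like sensors of viral RNA, Ddx58, which encodes RIG-I, lay at 0.20, 0.46 and 0.21 and was called higher (1.22-fold, adjusted p = 0.0137). Ifih1, which encodes MDA5, rose by 0.19 ± 0.04 but was not called without pool 1, and Dhx58, which encodes LGP2, lay at 0.10 ± 0.04 and was not called. Taking the class as a whole, 18 of 30 type I targets were called higher, against 22% of all genes.

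Of the 8 measured interferon-gamma targets, 6 were called higher, against 22% of all genes. Guanylate-binding proteins are large GTPases that attack vacuoles of intracellular microbes. Gbp2 lay at 0.84, 0.70 and 0.71 in pools 1, 2 and 3, which is 1.68-fold (limma adjusted p = 4.32e-04), and Gbp3 rose by 0.57 ± 0.02, the tightest of the called members of this class. Gbp7 lay at 0.25, 0.08 and 0.09 and was not called (adjusted p = 0.063). Immunity-related GTPases remodel such vacuoles. Irgm2 lay at 0.65, 0.59 and 0.55 (1.51-fold, adjusted p = 5.72e-04), Irgm1 rose by 0.23 ± 0.03, and Igtp, also known as Irgm3, lay at 0.47, 0.16 and 0.37 (1.26-fold, adjusted p = 0.0105). Neither Irgm1 nor Igtp was called without pool 1. Iigp1, an effector that loads onto vacuoles, lay at 0.08, -0.15 and 0.26, on both sides of 0. Irf1, the transcription factor that carries the interferon-gamma signal forward, lay at 0.82, 0.39 and 0.61 (1.52-fold, adjusted p = 0.00315), with pool 1 highest and pool 2 lowest.

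Among the transcription factors, Irf9 and Stat2, which bind the ISRE together, rose. Irf9 lay at 0.50, 0.64 and 0.54 (1.48-fold, limma adjusted p = 7.81e-04), and Stat2 rose by 0.45 ± 0.03 (1.37-fold, adjusted p = 0.00104). Irf7, the amplifier of type I interferon production, lay at 0.26, 0.20 and 0.34 and rose. Irf8, a factor of monocytes, macrophages and dendritic cells, lay at 0.44, 0.24 and 0.26 and rose (1.24-fold, adjusted p = 0.00653). The remaining 4 were not called. Irf3, which starts interferon production after virus sensing, lay at -0.11, -0.19 and -0.09 (adjusted p = 0.0512), Irf2, a repressor of interferon targets, at -0.11, -0.13 and -0.03, Irf4, a factor of lymphocytes, at -0.17 ± 0.16, and Irf5, a factor of inflammatory macrophages, at 0.19, 0.11 and -0.02. Irf2, Irf3 and Irf4 were below 0 in every pool.

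Of the 4 receptor genes, 3 rose, against 22% of all genes called higher. Ifngr1 lay at 0.55, 0.29 and 0.42 (1.34-fold, limma adjusted p = 0.00347), Ifngr2 at 0.30, 0.31 and 0.19 (1.20-fold, adjusted p = 0.00641), and Ifnar2 at 0.41, 0.43 and 0.31 (1.30-fold, adjusted p = 0.00213). Ifnar1 lay at -0.11, -0.17 and -0.00 and was not called (adjusted p = 0.156). On this array the chains of the interferon-gamma receptor were thus both called higher, and of those of the type I receptor only Ifnar2 was called.

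Type I targets and interferon-gamma targets did not keep 1 order in all pools. On the oligonucleotide array the median of the mean ratio was 0.28 for 30 type I targets and 0.45 for 8 interferon-gamma targets. Their difference was -0.17, with pool differences of -0.30, 0.07 and -0.22 (SD 0.20, n = 3 pools). Without pool 1, 2 or 3 the difference was -0.07, -0.25 or -0.15. The sign turned in pool 2, where the type I median was highest (0.37, against 0.22 in pool 1 and 0.24 in pool 3) and the interferon-gamma median lowest (0.30, against 0.52 and 0.46). Pool 1 was highest in 6 of the 8 interferon-gamma targets and pool 2 lowest in 6, against 32.7% and 37.2% of all genes. Pool 2 was highest in 13 of 30 type I targets, against 32.5% of all genes. The macrophage markers given above had the same order of pools as the interferon-gamma targets. So did the medians of T and NK cell markers (0.18, 0.07 and 0.10) and of 19 sensors and adaptors given below (0.15, 0.09 and 0.13). The 12 regulators (0.282, 0.216 and 0.225) and the 40 further type I targets given below (0.204, 0.192 and 0.201) shared it as well. The 25 genes listed below as further interferon-gamma targets did not, at 0.258, 0.252 and 0.260 with pool 3 highest. The order was thus not particular to the interferon-gamma targets. The part of macrophages, T cells and NK cells in the order was not tested. Without Iigp1 and with Irf7, Irf9 and Stat2 added to the type I targets, the medians were 0.29 and 0.57, and the pool differences were -0.30, 0.04 and -0.23. The difference of these medians was -0.28, and the SD of the pool differences was 0.18. The sign again turned in pool 2. On the cDNA array the medians were 0.92 for 12 type I targets and 0.62 for 6 interferon-gamma targets, with pool differences of 0.18, 0.95 and -0.24. With the same change of lists the cDNA medians were 0.75 for 14 type I targets and 0.76 for 5 interferon-gamma targets. The pool differences were then 0.14, 0.345 and -0.48.

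**Figure D2:**
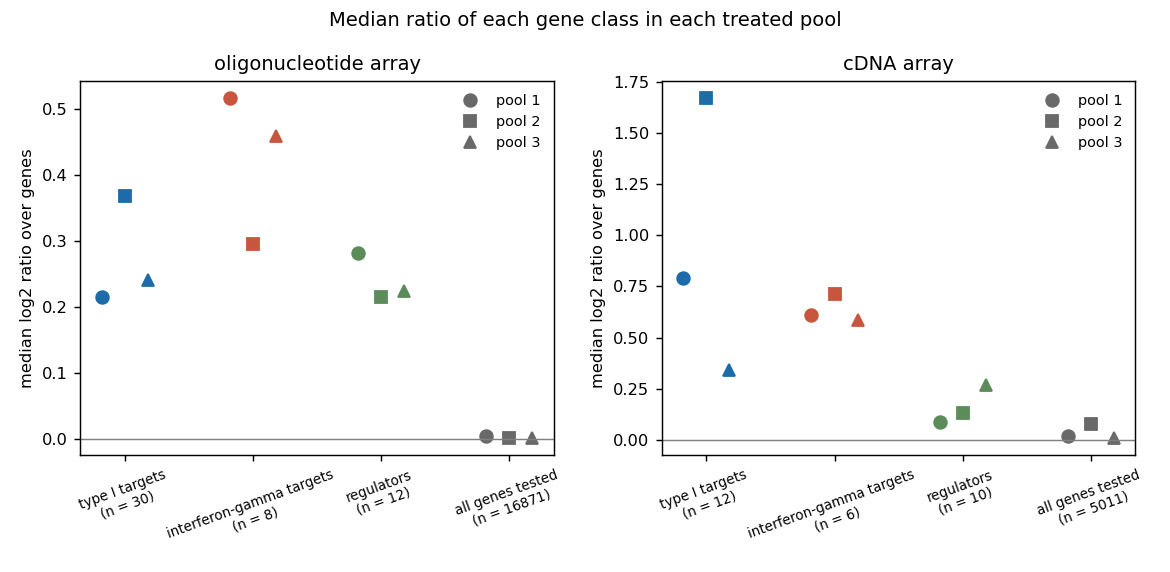
Median log2 ratio over genes (vertical axis) of type I targets, interferon-gamma targets, regulators and all genes tested, in each of 3 P-407 pools, on the oligonucleotide array (left) and the cDNA array (right). On the oligonucleotide array type I targets are highest in pool 2 (0.37) and interferon-gamma targets lowest there (0.30), and on the cDNA array type I targets range from 0.34 in pool 3 to 1.67 in pool 2.

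The cDNA array read the same pools with a wider spread between pools and fewer genes. Limma called 0 of 28 members at an adjusted p under 0.05, as it called 0% of all genes in either direction. At an unadjusted p under 0.05, 12 members were higher and 1 lower (Irf3), against 15.8% and 14.5% of all genes. The mean ratio reached 1.5-fold or more upward in 14 members, against 18.5% of all genes, and 2-fold in 9, against 8.58%. The ratio was above 0 in all 3 pools for 15 members, against 31.1% of all genes. The values below are a description, since none passed the adjusted threshold, and they share the control pool and the treated RNA with those of the oligonucleotide array.

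Oasl2 had the largest cDNA ratio of the members, at 2.89, 3.41 and 0.91 in pools 1, 2 and 3 (2.40 ± 1.32, SD, n = 3 pools, limma adjusted p = 0.117). Ifit1 lay at 1.77, 1.66 and 0.60, Rsad2 at 1.29, 1.97 and 0.61 as the average of 2 features, and Parp14 at 0.78, 2.36 and 0.45. In these 4 genes pool 3 was the lowest. Eif2ak2 lay at 1.26, 1.86 and -0.10, and Trim21 at 1.55, 2.05 and -0.06, each as the average of 2 features. Oas1a, an oligoadenylate synthetase measured on the cDNA array only, lay at 0.14, 1.68 and -0.13. These 3 genes were below 0 in pool 3, though the 2 features of Trim21 lay at 0.36 and -0.47 there. The mean of Oas1a was 0.56 with pool 2 and 0.005 without it. Ddx58 lay at 0.80, 0.82 and 0.23.

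Over the 12 type I targets of the cDNA array, pool 2 was highest in 10 and pool 3 lowest in 9. Over all genes of that array pool 2 was highest in 38.3% and pool 3 lowest in 44.0%. The spread of all gene ratios was also narrower in pool 3, with an SD of 0.64, against up to 1.01 in the other pools. Of the type I targets, Trim30a kept to neither order. It lay at 0.78, 0.74 and 1.01 (0.84 ± 0.15, limma adjusted p = 0.0986), with pool 3 highest. Usp18 at 0.50, 0.83 and 0.62 and Trim25 at -1.12, -0.14 and -0.38 were highest in pool 2 but lowest in pool 1. Ifit2 lay at -0.02, 0.04 and -0.18, near 0 in every pool.

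**Figure D3:**
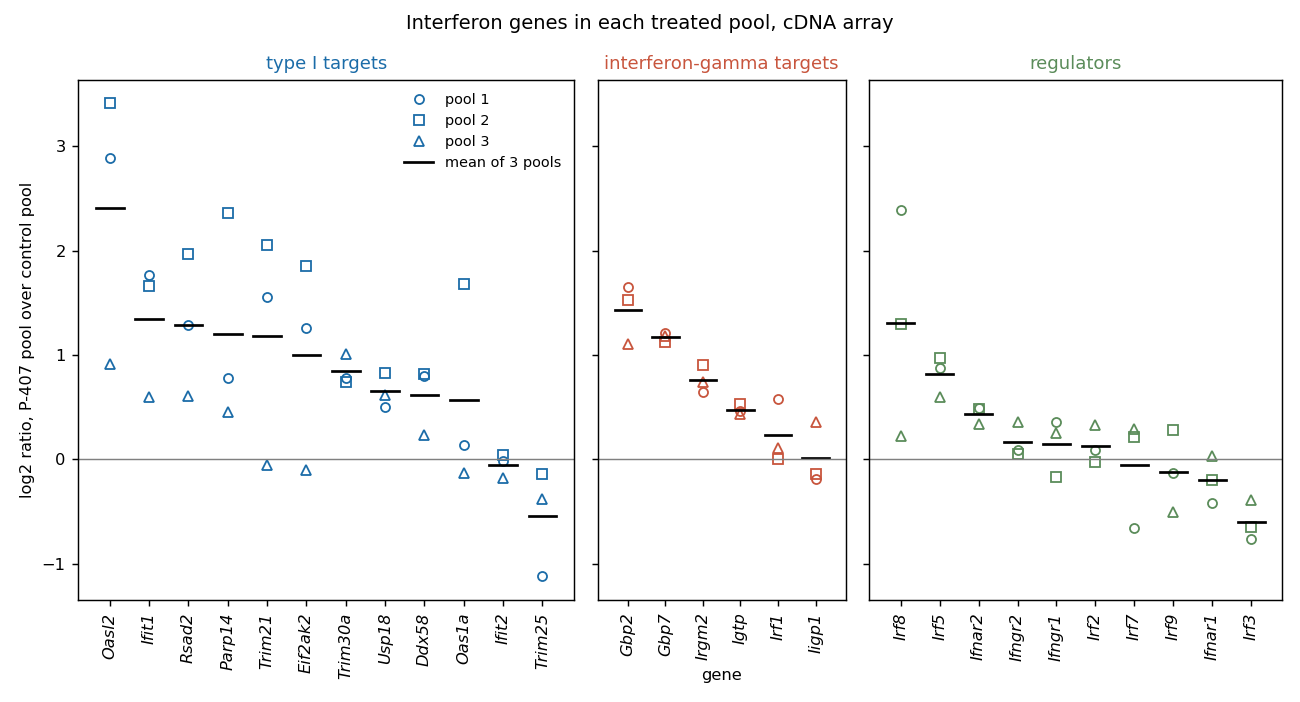
Log2 ratio of each of 3 P-407 pools over the control pool (vertical axis) for the 28 members on the cDNA array (horizontal axis), by class and in order of the mean, with a bar at the mean of 3 pools. Type I targets such as Oasl2 and Parp14 spread over more than 1 unit with pool 3 lowest, while Gbp7 and Igtp lie within 0.1. The classes overlap in spread: the SD is 0.15 for Trim30a, a type I target, and 0.31 for Irf1, an interferon-gamma target.

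The interferon-gamma targets were more even on the cDNA array. Gbp2 lay at 1.65, 1.53 and 1.10 in pools 1, 2 and 3 (1.43 ± 0.29, 2.69-fold, limma adjusted p = 0.0984), and Gbp7 at 1.21, 1.12 and 1.18 (1.17 ± 0.05, 2.25-fold, adjusted p = 0.0984). Irgm2 lay at 0.64, 0.90 and 0.74, and Igtp at 0.46, 0.53 and 0.43. These 4 GTPase genes were above 0 in every pool. Irf1 lay at 0.58, 0.00 and 0.11, and Iigp1 at -0.19, -0.14 and 0.36. Pool 3 was lowest in 2 of these 6 genes.

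Of the regulators on the cDNA array, Irf8 lay at 2.39, 1.30 and 0.22 and Irf5 at 0.87, 0.97 and 0.60. Both are genes of myeloid cells. On this array 11 macrophage markers had medians of 0.92, 1.18 and 0.28 in the same pools, with 0 called. Of these markers 7 were above 0 in every pool, against 31.1% of all genes. In every pool 2 were below 0, Cd163 (-4.06, -1.81 and -1.73) and Itgam (-1.59, -1.17 and -0.57). The part of macrophages in the ratios of Irf8 and Irf5 was not tested. Irf3 lay at -0.76, -0.65 and -0.39, Irf7 at -0.66, 0.21 and 0.29, Irf9 at -0.13, 0.28 and -0.51, and Irf2 at 0.09, -0.03 and 0.33. Irf3 was below 0 in every pool, while Irf7 and Irf9 changed sign between pools here. Ifnar2 lay at 0.49, 0.48 and 0.34, Ifngr2 at 0.09, 0.05 and 0.36, Ifngr1 at 0.36, -0.17 and 0.25, and Ifnar1 at -0.42, -0.20 and 0.03.

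Whether the ratio depended on the array type was tested for the 27 members on both. Without a term for the pool, limma called 3 of them different at an adjusted p under 0.05, against 11.4% of all genes. Ifit2 was higher on the oligonucleotide array by 0.82 (adjusted p = 0.0243), with a mean of 0.77 there and -0.05 on the cDNA array. Gbp7 differed by -1.03 (adjusted p = 0.0176), with means of 0.14 and 1.17, and Irf5 by -0.72 (adjusted p = 0.038), with means of 0.09 and 0.81. With the pool as a block, which the shared RNA of each pool calls for, 0 of the 27 were called, as for 0% of all genes, and the adjusted p of these 3 was 0.128 each. Without the block, leaving out pool 1 or pool 2 gave 0 called members and leaving out pool 3, the pool with the narrower cDNA spread, gave 10.

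**Figure D4:**
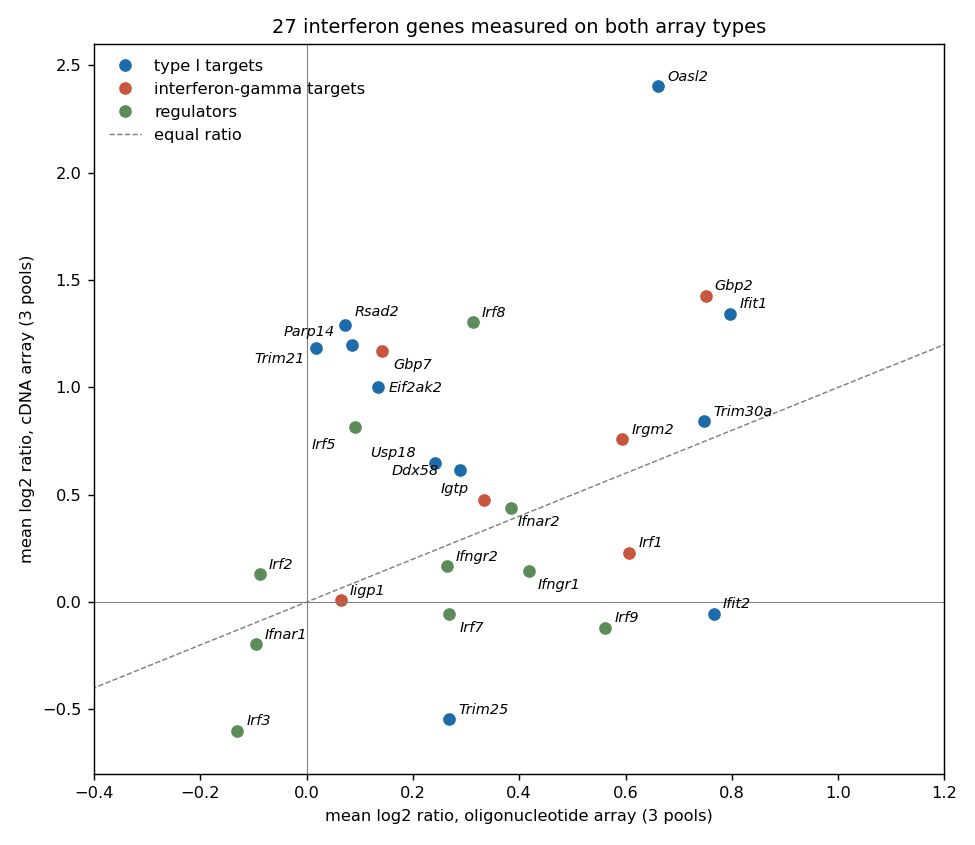
Mean log2 ratio of 3 P-407 pools over the control pool on the oligonucleotide array (horizontal axis) and on the cDNA array (vertical axis) for the 27 members measured on both, coloured by class, with a dashed line of equal ratios (the axes differ in scale). Gbp2 and Ifit1 are high on both arrays, Gbp7, Rsad2 and Trim21 are near 0 on the oligonucleotide array and above 1 on the cDNA array, and Ifit2 and Trim25 lie below 0 on the cDNA array.

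Other genes of the pathway were read from lists on the oligonucleotide array, where 22% of all genes were called higher and 21.4% lower. The interferon genes themselves showed no common change: of 10 measured, Ifna5 was called higher (0.16 ± 0.04) and Ifna11 lower (-0.78 ± 0.29). Ifng lay at -0.13, -0.24 and 0.06 and Ifnb1 at 0.23, -0.03 and 0.21, neither called (limma adjusted p = 0.241 and 0.126). Of 18 genes of JAK-STAT signalling and its inhibitors, 8 were higher and 4 lower, the second count being close to the 21.4% of all genes called lower. Il10rb, a shared receptor chain of interleukin-10 and of the lambda interferons, rose by 1.07 ± 0.10, the feedback inhibitor gene Socs3 by 0.97 ± 0.35, the phosphatase gene Ptpn1 by 0.45 ± 0.18, and Ifnlr1, the other chain of the lambda interferon receptor, by 0.39 ± 0.11. Pias3 (-0.37 ± 0.19), the kinase genes Tyk2 (-0.27 ± 0.02) and Jak2 (-0.21 ± 0.01), and Socs1 (-0.20 ± 0.01), a feedback inhibitor of interferon-gamma signalling, fell. On the cDNA array Tyk2 lay above 0 in every pool, at 0.47, 0.29 and 0.29 (limma adjusted p = 0.168).

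Of 19 sensors and adaptors upstream of interferon production, 7 were higher and 2 lower. Ifi204, a DNA sensor of mouse macrophages, rose by 0.98 with all pools within 0.01 of each other, the endotoxin receptor gene Tlr4 by 0.92 ± 0.10, the RNA receptor gene Tlr7 by 0.61 ± 0.07 and Ifi203 by 0.46 ± 0.05. Aim2, the DNA sensor of an inflammasome (-0.64 ± 0.19), and the DNA receptor gene Tlr9 (-0.24 ± 0.10) fell. Markers of macrophages, 11 called higher and 4 lower, are given above. The part of these cells in the sensor ratios, higher or lower, was not tested.

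Of 40 further type I targets, 22 were higher and 6 lower, with a median of 0.17. Tor3a, an ATPase of the endoplasmic reticulum, rose by 1.24 ± 0.12, Lgals3bp, a secreted galectin-binding glycoprotein, by 1.15 ± 0.12, Apobec1, the cytidine deaminase that edits apolipoprotein B mRNA, by 1.13 ± 0.05, and Oas1f by 1.09 ± 0.15. Trim14 (-0.75 ± 0.26), Herc6, the ISG15 ligase of mouse (-0.54 ± 0.07), Slfn3 (-0.28 ± 0.11) and Slfn4 (-0.26 ± 0.14) fell. On the cDNA array Herc6 lay above 0 in every pool, at 1.70, 2.17 and 0.23 (limma adjusted p = 0.154). Of 25 genes listed as further interferon-gamma targets, 14 were higher and 4 lower, with a median of 0.24. Cd274, the checkpoint ligand PD-L1, rose by 0.82 ± 0.16, the inflammasome protease gene Casp1 by 0.81 ± 0.15 and Gbp4 by 0.67 ± 0.11, and the chemokine gene Cxcl10 lay at 1.10, 0.91 and 0.95. Ubd (-0.29 ± 0.06), Irgc1 (-0.28 ± 0.03), Ido1, which breaks down tryptophan (-0.23 ± 0.05), and Socs1, named above, fell. Whether Irgc1 or any other listed gene answers to interferon gamma in liver was not tested. Both lists had called genes in both directions.

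Sequence and response were set side by side on the oligonucleotide array. Of 16 measured members with an ISRE core in the 250 bases searched, 9 were called higher (median ratio 0.31), and of 25 whose searched promoters held none, 19 were called higher (median 0.29). For the GAS core the counts were 8 of 12 (median 0.32) and 20 of 29 (median 0.29). Among the other genes with a promoter in the table, 25.8% of 434 with an ISRE core and 21.9% of 1013 with a GAS core were called higher, against 21.6% of 13373 in all. Isg15 held 3 overlapping matches of the ISRE core and was not called on this array.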

How the data were processed

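The authors deposited 1 log ratio per feature and array, read here as log2 ratios of Cy5 (P-407) over Cy3 (control) from the titles and dyes in the labels. How the deposited log2 values were background-corrected, normalized and centred, and their log base, are not stated in the labels. The largest absolute value, 6.34, exceeds the 4.82 that a log10 ratio of 16-bit intensities could reach, while a natural log (limit 11.1) would make every fold larger than printed.

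Values of exactly 0 were set to missing, the median of the remaining features was subtracted per array, and features with 1 annotated gene and a value on all 3 arrays were averaged per gene. On the cDNA array the feature annotated with Isg15 under 2 gene IDs was left out, and Ifit3, Samhd1, Irgm1 and Irf4 had a 0 in at least 1 pool. Gene IDs were matched to RefSeq (GRCm38.p6) for 18445 of 18658 oligonucleotide and 7332 of 7410 cDNA features, and no symbol changed. Each array type was fitted with limma 3.58.1 (lmFit, eBayes) in R 4.3.3 against 0, with Benjamini-Hochberg adjustment over all genes of the array type, and the fits were tested on simulated data. The array types were compared with and without the pool as a block. The labels state that both array types received RNA of the same pools, so pool numbers pair the arrays; the deviations of same-numbered arrays correlated at 0.06, 0.07 and 0.07 over 4702 genes. Python 3.11.15, pandas 2.3.3 and matplotlib 3.10.9 were used.

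Members, classes, lists and motifs were chosen with earlier results of these data known. Members on both arrays or called at 1.5-fold are given per pool, and up to 4 called genes per direction of each further list are named. Ifng, Ifnb1, the plasmacytoid markers and the cDNA values of Herc6, Tyk2, Spib and the T and NK cell markers were named after their values were seen. So were the 2 Trim21 features in pool 3 and the lists set beside the pool order of the interferon-gamma targets. The 6 arrays and the single control pool limit the precision.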

Additional observations from a re-analysis of the deposited data

Results flagged for a closer look

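In 3 members the ratio differed between the array types in limma's test without a term for the pool, out of 27 tested, against 11.4% of all genes, so the share is close to that of all genes. Ifit2 was higher on the oligonucleotide array than on the cDNA array, with a difference of 0.82. Gbp7 differed by -1.03 and Irf5 by -0.72, so both had larger ratios on the cDNA array. With the pool as a block none of the 3 was called. Each gene was read by 1 feature per array type.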

How the results depend on the processing

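Values of 0 kept, no centring, arrays scaled to 1 spread, robust eBayes and features fitted singly left 31 members called higher on the oligonucleotide array. Parp14 is not among the 31, though its features, fitted singly, were each called, in opposite directions. The one-sample test without limma's shared prior called 0 of the 31 members, 40 genes of the oligonucleotide array (7318 as reported) and 1 of the cDNA array. Leaving out 1 pool gave 4025 to 6244 called genes and 26 to 32 members higher, and 26 of the 31 members were called in every leave-out. The interferon-gamma median was 0.57 with the other lists, against 0.45, on the oligonucleotide array. On the cDNA array the type I median was 0.75 with the other lists, against 0.92, and the interferon-gamma median 0.76, against 0.62. The pool as a replicate block left 0 members that differed between array types, and leaving out 1 pool without the block gave 0 to 10. Uncalled members near 0 changed sign when 1 pool was left out: on the oligonucleotide array Oas3 (-0.0015 to 0.053), Trim21 (-0.025 to 0.057), Parp9 (-0.020 to 0.028) and Iigp1 (-0.035 to 0.17), and on the cDNA array Ifit2 (-0.10 to 0.01), Iigp1 (-0.17 to 0.11), Irf7 (-0.23 to 0.25) and Irf9 (-0.32 to 0.075). On the cDNA array Iigp1 was also -0.05 with values of 0 kept and -0.05 without centring, and Irf7 0.0051 with arrays scaled. The cause of these shifts was not tested. No intensities were available to set signal against background.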
